A study of Mus musculus with 12 samples.

Results

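Neutrophil granule and oxidase genes are described here in RNA of cells sorted from the bone marrow of mice with hypertension, atherosclerosis or MI and of naive controls. The set was chosen by symbol and holds 35 genes for proteins of primary, secondary and tertiary granules, the NADPH oxidase and late receptors and secreted or cytoplasmic proteins, matched to Ensembl identifiers in a table of 55421 genes. All 35 were found, and all 35 were among the 15999 genes with enough counts to be tested. Within them, 4 early genes (*Elane*, *Mpo*, *Prtn3* and *Ctsg*) were set against 4 late genes (*Ltf*, *Camp*, *Mmp8* and *Mmp9*).

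The libraries were made to compare marrow endothelial RNA between mice with and without these diseases, with 3 mice in each of 4 groups. Controls were naive C57BL/6J mice, and all groups were 20 weeks old. The hypertension group were C57BL/6J mice given angiotensin II, by the methods through minipumps for 8 weeks, and the MI group were C57BL/6J mice with an acute infarct of the heart, taken at day 2 by the labels and at day 4 by the published text. The atherosclerosis group carried Apoe(tm1Unc), a knockout of apolipoprotein E, and by the methods ate a western diet for 10 weeks, so that the allele, the strain label and the diet cannot be told apart in this group. The same 3 naive controls serve in all 3 comparisons. By the methods, minipumps were implanted under anesthesia and infarcts were made by surgery, with buprenorphine given. These procedures cannot be told apart from hypertension or MI here. Each library came from 1 mouse, and the replicates are numbered 2, 3 and 4 within every group.

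Counts on genes totalled 17007088 to 25136936 per library (median 19419915), so that 3 counts, taken as the floor, amounted to 0.116 to 0.176 CPM (counts per 1000000 counts on genes, scaled by TMM factors). That floor covers counting error only, and the lowest count of any of the 35 genes was 628. *Apoe*, the deleted gene, stood at 781 ± 98.4 CPM in controls (SD, n = 3) and at 10.6 ± 3.81 in the *Apoe*-/- mice (SD, n = 3). The methods describe depletion of lineage-positive cells, CD11b+ and Ly6G+ cells among them, and a sort of TER-119- CD41- CD45- CD31hi SCA-1+ cells. In the libraries, 13 endothelial genes together held 139 to 269 CPM of the unscaled library total (the scale of every sum over a gene list here), with *Cdh5*, the endothelial cadherin, at 2.02 to 4.30. The gene for CD45, *Ptprc*, held 432 to 838, the CD11b gene *Itgam* 158 to 539.8 and *Ly6g*, a member of the set, 37.7 to 77.6. The 35 neutrophil genes held 4.52% to 10.7% of all counts. Endothelial markers were thus low beside those of cells the sort was to remove, so the samples are named below by their group and not as endothelial cells. In such bulk RNA, fewer cells of a type and less RNA per cell cannot be told apart.

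Neutrophils fill their granules in the order in which they mature. Myeloblasts and promyelocytes make the serine proteases and myeloperoxidase of primary granules, myelocytes make the antimicrobial proteins of secondary granules under the transcription factor encoded by *Cebpe*, and later cells make gelatinase granules, chemotactic receptors and the membrane and cytosolic subunits of the oxidase that produces superoxide. A neutrophil in blood has largely stopped transcribing the early genes, so that their transcripts are known mainly from the marrow.

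The early genes lie on 3 chromosomes (GENCODE M21, GRCm38). *Elane*, at chr10:79886247-79888215, and *Prtn3*, at chr10:79874476-79883174, are neighbours with 3073 bases between them. *Mpo* lies at chr11:87793581-87804413 and *Ctsg* at chr14:56099881-56102574. Of the late genes, *Ltf* (chr9:111019271-111042767) and *Camp* (chr9:109847379-109849617) lie on chromosome 9 with the member *Ngp* (chr9:110419747-110423012) between them, *Mmp8* lies farther off on the same chromosome (chr9:7558456-7568485) and *Mmp9* on chromosome 2 (chr2:164940780-164955850). The sequences upstream of the 4 early genes and *Ltf* are shown because the early genes share a run of letters there that the choice of genes did not use. They are RefSeq's, build GRCm38.p6, written 5′ to 3′ on the strand of the gene. Each begins 250 bases before RefSeq's start site and stops before the first base of that window which GENCODE M21 places in an exon of the gene, and the *Prtn3* stretch lies within the gene's GENCODE span, which starts farther upstream. *Elane* is given at chr10:79886062-79886246 (+ strand), *Prtn3* at chr10:79879417-79879613 (+), *Mpo* at chr11:87793534-87793580 (+), *Ctsg* at chr14:56102575-56102824 (- strand) and *Ltf* at chr9:111019042-111019270 (+). Capitals mark AGGAAGT, a core bound by PU.1 and other ETS factors, in the early genes, and a match to TTGCNNAA, an element of C/EBP factors, in *Ltf*.
Elane: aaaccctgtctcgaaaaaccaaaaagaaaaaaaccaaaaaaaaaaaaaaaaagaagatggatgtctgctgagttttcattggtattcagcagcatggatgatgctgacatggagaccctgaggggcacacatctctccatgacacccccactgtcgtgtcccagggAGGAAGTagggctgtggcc
Prtn3: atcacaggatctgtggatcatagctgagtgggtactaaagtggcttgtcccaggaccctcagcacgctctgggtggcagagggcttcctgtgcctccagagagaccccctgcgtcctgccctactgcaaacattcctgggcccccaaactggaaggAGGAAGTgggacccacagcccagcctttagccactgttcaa
Mpo: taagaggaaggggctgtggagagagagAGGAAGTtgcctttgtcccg
Ctsg: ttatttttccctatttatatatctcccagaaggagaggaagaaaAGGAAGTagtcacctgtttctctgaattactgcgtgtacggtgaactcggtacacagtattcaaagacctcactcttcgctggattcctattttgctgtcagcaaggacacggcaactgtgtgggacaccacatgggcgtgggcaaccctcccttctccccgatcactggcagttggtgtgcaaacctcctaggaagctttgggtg
Ltf: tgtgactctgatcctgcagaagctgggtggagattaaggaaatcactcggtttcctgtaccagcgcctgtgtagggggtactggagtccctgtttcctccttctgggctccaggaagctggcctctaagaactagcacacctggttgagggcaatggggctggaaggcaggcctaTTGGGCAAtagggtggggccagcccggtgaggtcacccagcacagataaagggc

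Both motifs were searched on both strands in the 250 bases before the start, and their letters were chosen after these sequences had been seen, so the counts are a description. AGGAAGT was found upstream of 4 of 4 early genes, beginning 84 bases before RefSeq's start site in *Elane*, 94 in *Prtn3*, 206 in *Ctsg* and 223 in *Mpo*. In *Elane*, *Prtn3*, *Mpo* and *Ltf* a GENCODE exon begins between the marked motif and that site, and so lies closer to the motif. It was found in 1 of the 3 late genes that have a window (*Mmp8*), in 10 of the 29 set members that have a window (34.5%) and in 7.8% of 27025 genes. TTGCNNAA was found in 0 of 4 early genes, in 2 of 3 late genes (*Ltf*, 75 bases before the start, and *Mmp8*), in 8 of 29 members (27.6%) and in 9.55% of 27025 genes. No window shown held both motifs. *Mmp9*, *Cebpe*, *Serpinb1a*, *Hp*, *Ncf4* and *Wfdc21* had no window. Both letter runs are short, and a match says nothing of whether a factor was bound.

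Per kilobase of exon, the set spanned from 15.0 to 21388 CPM (means over the 12 libraries). *Ngp*, which encodes a cystatin-like protein of secondary granules, had the highest level per length of all 15999 genes tested, and its range over the libraries, 10445 to 36441 CPM per kb, did not overlap that of the next member. That was *Elane*, neutrophil elastase, at 7376 CPM per kb. It was followed by *Camp*, the cathelicidin precursor, at 6158, *Lyz2*, lysozyme, at 3647, *Retnlg*, a resistin-like secreted protein, at 2622 and *Ltf*, the iron-binding lactoferrin, at 1909. Each of the genes from *Elane* downward overlapped its neighbour in this order over the 12 libraries, so that the order of neighbours is not fixed beyond their spread. Among the early genes, the level per length went down from *Elane* through *Mpo* (1295) and *Prtn3* (451) to *Ctsg* (189). Among the late genes it went down from *Camp* and *Ltf* through *Mmp8* (330.5) to *Mmp9* (118). Of the oxidase subunits, *Cyba* stood at 912 CPM per kb, *Ncf4* at 257, *Cybb* at 207 and *Ncf1* at 93.6. The lowest levels were those of the surface proteases *Mmp25* and *Adam8* (21.5) and of *Padi4* (21.2), the enzyme that citrullinates histones in neutrophil traps.

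**Figure D1:**
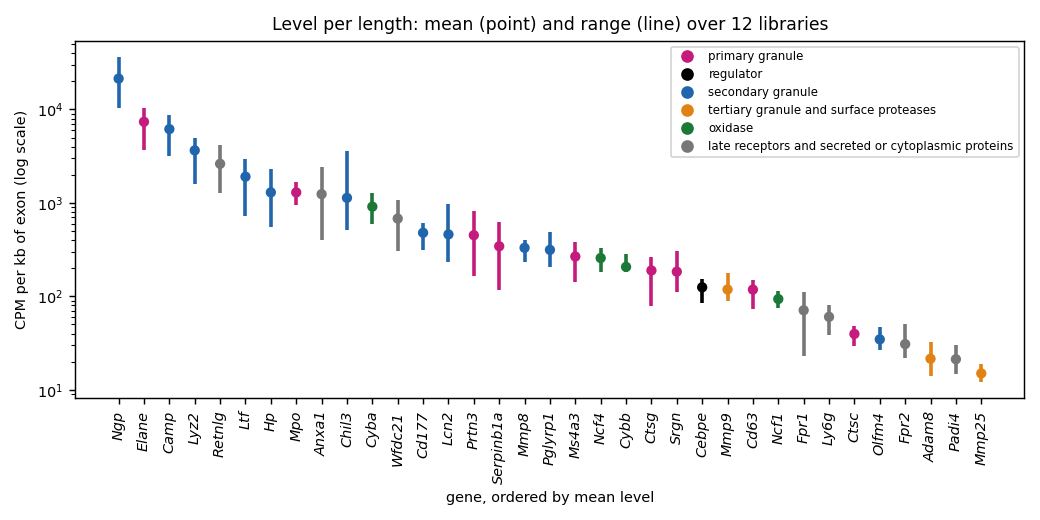
Level per length of the 35 genes on a log axis (CPM per kb of exon), with the mean over 12 libraries as a point, the range over libraries as a line and colour by role. *Ngp* stands apart at the top of the set, and each later gene overlaps the one that follows it.

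Some counts carry a limit of identity. The setting that counted strand is not given in the sources used here, and *Mpo* shares 512 exonic bases with the antisense gene *Gm11505*, *Ncf1* shares 408 with *Gtf2ird2* on the other strand, and *Prtn3* shares 159 with *Plppr3*. *Olfm4* shares 153 bases with *Gm6999* on its own strand, and *Fpr2* shares 48 with *Fpr3* on its own strand. *Lyz2* and *Chil3* have near-identical copies, *Lyz1* and *Chil4*, and counts of uniquely placed reads on such pairs are uncertain.

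Of the early genes, *Elane* had 9934, 7296 and 5730 CPM in controls, 7524, 6297 and 6688 in hypertension, 4763, 6879 and 3623 in atherosclerosis and 9276, 10172 and 8918 after MI (replicates 2, 3 and 4 in each group). The 3 MI libraries lay above all but 1 of the other libraries, control replicate 2, and atherosclerosis replicates 2 and 4 were the lowest of the 12. *Mpo*, myeloperoxidase, which makes hypochlorous acid, had 4755, 4653 and 4227 CPM in controls, 4698, 4173 and 4514 in hypertension, 5146, 3665 and 3215 in atherosclerosis and 4420, 5756 and 3992 after MI. Its groups overlapped throughout, and the highest library exceeded the lowest 1.79-fold. *Prtn3*, proteinase 3, had 1236, 791 and 722 CPM in controls, 636, 523 and 355 in hypertension, 287, 906 and 601 in atherosclerosis and 1404, 955 and 964 after MI. All 3 hypertension libraries lay below all 3 controls, and the lowest of the 12 were atherosclerosis replicate 2 and hypertension replicate 4. *Ctsg*, cathepsin G, had 229, 225 and 148 CPM in controls, 178, 197 and 227 in hypertension, 143, 184 and 82.0 in atherosclerosis and 227, 236 and 269 after MI. Atherosclerosis replicate 4 was the lowest, and the other groups overlapped with the controls.

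Of the late genes, *Ltf* had 8363, 6428 and 8182 CPM in controls, 5057, 4562 and 2738 in hypertension, 2516, 8113 and 9989 in atherosclerosis and 10104, 7803 and 5196 after MI. The hypertension libraries again lay below the controls without overlap, while atherosclerosis held both the lowest library, replicate 2, and the library with the next to highest value, replicate 4. *Camp* had 5570, 4442 and 3902 CPM in controls, 4166, 3954 and 4198 in hypertension, 3323, 4965 and 2434 in atherosclerosis and 6561, 5833 and 6663 after MI. Here the 3 MI libraries lay above all 9 others, and hypertension and atherosclerosis overlapped with controls. *Mmp8*, neutrophil collagenase, had 749.8, 969 and 928 CPM in controls, 726, 953 and 780 in hypertension, 645, 565 and 795 in atherosclerosis and 771, 950.2 and 787 after MI. *Mmp9*, gelatinase, had 385, 520.3 and 562 CPM in controls, 321, 452 and 353 in hypertension, 316, 314 and 636 in atherosclerosis and 431, 381 and 357 after MI. Neither metalloprotease separated a disease group from controls, and in *Mmp9* the highest and the lowest libraries were both in atherosclerosis.

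**Figure D2:**
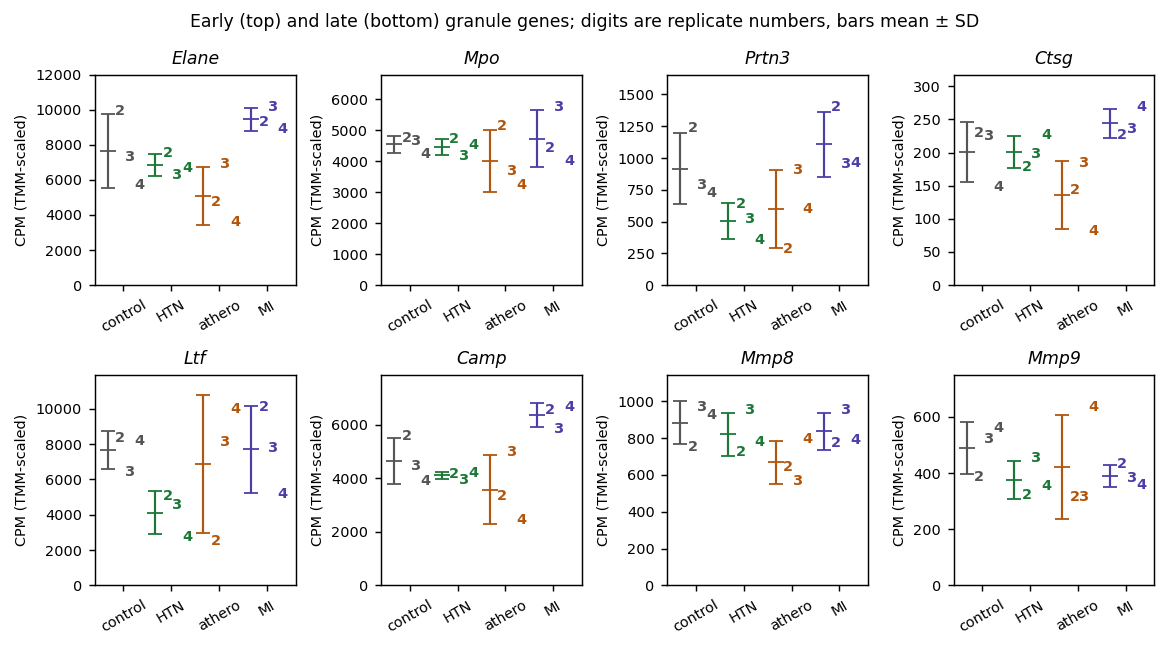
CPM of the 4 early genes (top) and 4 late genes (bottom) in each library, with digits for the replicate numbers and bars for the group mean ± SD (n = 3); HTN is hypertension and athero is atherosclerosis. *Prtn3* and *Ltf* are below the controls in all 3 hypertension libraries, *Camp* is above them in all 3 MI libraries, and the spread is widest in atherosclerosis for *Ltf* and *Mmp9*.

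The balance of early and late genes was taken in each library as the log2 ratio of their summed CPM. It averaged -0.05 ± 0.24 in controls, 0.35 ± 0.19 in hypertension, -0.18 ± 0.75 in atherosclerosis and 0.03 ± 0.22 after MI (SD, n = 3 each). The 3 hypertension libraries (0.34, 0.17 and 0.55) lay above the 3 controls (0.10, 0.07 and -0.33), a difference of 0.41. With *Ltf* left out of the late genes this difference was 0.04, and as a difference of mean log2 CPM over the 4 genes of each kind it was 0.15, so the summed ratio rested on *Ltf*. Within atherosclerosis the ratio ran from -0.88 in replicate 4 to 0.60 in replicate 2, both outside the range of all other groups. The MI libraries overlapped with controls. Each ratio is a sum over chosen genes and was not tested.

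**Figure D3:**
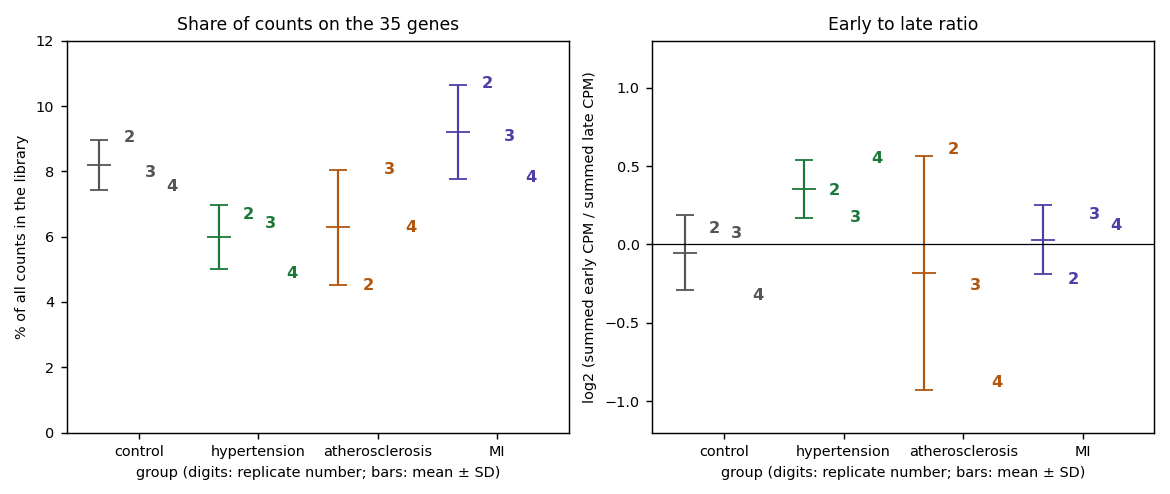
Left, share of all counts on the 35 genes (%); right, log2 ratio of summed early to summed late CPM; digits are replicate numbers and bars the group mean ± SD (n = 3). The hypertension libraries hold less of the set than each control (4.86% to 6.67% against 7.54% to 9.04%), and atherosclerosis holds both ends of the ratio. *Ngp* alone holds 1.31% to 4.15% of all counts over the libraries, a large part of the share.

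The first comparison asked which of the genes differ in mice with hypertension. Of the 35 genes, 32 were lower and 3 higher than in controls, and the median of their log2 fold changes was -0.31 against -0.01 over all genes tested, 51.9% of which were lower. No member was called at an adjusted p under 0.05 (edgeR's quasi-likelihood test, Benjamini-Hochberg adjustment; 0.0% of 15999 genes were called), none by edgeR's likelihood-ratio test and none by DESeq2. At an unadjusted p under 0.05 there were 2 members with the quasi-likelihood test, both lower, against 3.71% of all genes (1.63% lower), and 5 members each with the likelihood-ratio test and DESeq2 (3.51% and 3.91% of all genes). The smallest p was that of *Prtn3*, at 916 ± 279 CPM in controls and 504 ± 142 in hypertension (SD, n = 3 each), a log2 fold change of -0.86 ± 0.36 (SE) with an adjusted p of 0.951 (edgeR). *Wfdc21*, a secreted protein of the whey acidic protein family, had 399, 271 and 299 CPM in controls, 247, 213 and 159.9 in hypertension, 133, 298 and 316 in atherosclerosis and 470.2, 383 and 348 after MI. In *Wfdc21* the hypertension libraries lay below the controls, with a log2 fold change of -0.64 ± 0.29 (SE). For *Ltf* the value was -0.89 ± 0.42 (SE).

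In 15 members the 3 hypertension libraries all lay below the 3 controls, and in 0 members above them. Over all genes tested, 16.8% did not overlap, 7.81% lying below the controls and 9.02% above. Of the 15, 3 were primary granule genes (*Prtn3*, *Srgn* and *Serpinb1a*) and 7 secondary granule genes (*Ltf*, *Ngp*, *Lcn2*, *Chil3*, *Pglyrp1*, *Lyz2* and *Hp*). The other 5 were genes of late receptors and secreted or cytoplasmic proteins (*Fpr1*, *Anxa1*, *Retnlg*, *Wfdc21* and *Ly6g*). Hypertension replicate 4 was the lowest hypertension library for all 15 genes but *Ly6g*. Without it, 16 members lay below the controls (11.0% of all genes did so with 2 libraries left). All 35 log2 fold changes were then negative, with 0 members at an unadjusted p under 0.05. Counts on mitochondrial genes also differed in replicate 4, at 0.693% of the library, the lowest of 12, against 1.05% to 1.67% in controls, and their part in the result was not tested. The 7 monocyte genes together were also lower in each hypertension library (1293 to 1404 CPM) than in each control (1421 to 1931), and their part was not tested either.

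By role, the 11 secondary granule genes had a median log2 fold change of -0.55 in hypertension, and 10 were lower. Beside *Ltf*, this group held *Lcn2*, which binds bacterial siderophores (-0.66), *Chil3*, a chitinase-like lectin (-0.64), *Hp*, haptoglobin (-0.58), *Ngp* (-0.56), *Lyz2* (-0.55), *Pglyrp1*, which binds bacterial cell walls (-0.37), and *Cd177*, a surface protein of the specific granule (-0.35). *Camp* (-0.18) and *Mmp8* (-0.11) were closer to 0, and *Olfm4*, an olfactomedin found in part of all neutrophils, was the exception at 0.14. The 7 late receptors and secreted or cytoplasmic proteins were all lower, with a median of -0.57, from *Fpr1*, the receptor of formyl peptides (-0.86), and *Anxa1*, annexin A1 (-0.67), to *Padi4* (-0.26). The 9 primary granule genes had a median of -0.23, of which *Elane* (-0.16), *Mpo* (-0.03) and *Ctsg* (0.00) were within their SE of 0. *Serpinb1a*, an inhibitor of these proteases (-0.81), *Srgn*, the proteoglycan that packs them (-0.54), and *Ctsc*, which activates them (-0.31), had lower values. *Ms4a3*, a membrane protein of granulocyte precursors (-0.23), and *Cd63*, a tetraspanin of the primary granule (-0.22), lay between them. The 4 oxidase genes had a median of -0.14, the 3 tertiary granule and surface protease genes one of -0.12, and *Cebpe* stood at -0.08.

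In mice with atherosclerosis, 32 members were again lower and 3 higher than in the same controls, and the median of their log2 fold changes was -0.31 against 0.01 over all genes, 48.1% of which were lower. No member was among the 23 genes called (edgeR's quasi-likelihood test, adjusted p under 0.05; 0.144% of 15999), and none was called by the likelihood-ratio test or DESeq2. At an unadjusted p under 0.05 there were 2 members, *Elane* and *Ctsg*, both lower, against 5.97% of all genes (2.0% lower). *Elane* stood at 7653 ± 2125 CPM in controls and 5088 ± 1652 in atherosclerosis (SD, n = 3 each), with a log2 fold change of -0.59 ± 0.27 (SE) and an adjusted p of 0.831 (edgeR). *Ctsg* had a log2 fold change of -0.56 ± 0.25 (SE) and *Mmp8* one of -0.40 ± 0.19 (SE). With 1 library left out at a time, *Elane* ranged from -0.87 to -0.36, the latter without control replicate 2, and *Ctsg* from -0.84 to -0.30, the latter without atherosclerosis replicate 4. In 0 members did the 3 libraries separate from the controls, against 9.51% of all genes tested. Without atherosclerosis replicate 2, 24 members were lower and 11 higher, and the median was -0.12, so the size of the shift depended on that library.

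All 9 primary granule genes were lower in atherosclerosis, with a median log2 fold change of -0.44, among them *Prtn3* (-0.62), *Serpinb1a* (-0.51), *Ms4a3* (-0.44) and *Cd63* (-0.34), whereas *Mpo* (-0.18), *Srgn* (-0.12) and *Ctsc* (-0.00227) were closer to 0. Of the 11 secondary granule genes, 9 were lower, with *Lyz2* lowest (-0.53). The 2 that were higher were *Olfm4* (0.08) and *Pglyrp1* (0.26). *Pglyrp1* lies 805650 bases and *Cd177* 5044795 bases from the deleted *Apoe* on chromosome 7. The genes of late receptors and secreted or cytoplasmic proteins were lower in 7 of 7, with a median of -0.37. The oxidase genes were lower in 3 of 4, with *Cybb*, the catalytic subunit, at 0.07. In this comparison the macrophage genes, summed over 7 markers, held 820 to 965 CPM against 527 to 634 in controls. The 5 stem and progenitor genes held 155 to 196 CPM against 117 to 126, and the part of both lists in the result was not tested.

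After MI the direction of most members was the other way. Log2 fold changes of 26 genes were above and of 9 genes below 0, and their median was 0.19 against 0.00 over all genes, 50.0% of which were higher. No member was called (edgeR's quasi-likelihood test; 0.0% of 15999 genes were), nor by the likelihood-ratio test or DESeq2, and 1 member had an unadjusted p under 0.05, against 2.8% of all genes (1.23% higher). That member was *Fpr2*, a receptor of formyl peptides and lipid mediators, with 44.2, 40.7 and 33.2 CPM in controls, 28.5, 33.8 and 32.8 in hypertension, 33.3, 40.4 and 35.9 in atherosclerosis and 65.1, 41.5 and 50.3 after MI. Control replicate 2 overlapped with the MI libraries in *Fpr2*, whose log2 fold change was 0.41 ± 0.18 (SE) with an adjusted p of 1 (edgeR). Without MI replicate 2 it was 0.22. *Camp* stood at 4638 ± 851 CPM in controls and 6352 ± 453 after MI (SD, n = 3 each), a log2 fold change of 0.45 ± 0.25 (SE). *Ms4a3* had 670.5, 460.3 and 419 CPM in controls, 508, 398 and 414 in hypertension, 386, 482 and 272 in atherosclerosis and 715, 656 and 651 after MI. Its log2 fold change was 0.38 ± 0.23 (SE), or 0.62 without control replicate 2, which lay among the MI libraries. In 2 members, *Camp* and *Pglyrp1*, all 3 MI libraries lay above all 3 controls, as in 4.27% of all genes, and 8.86% did not overlap in either direction.

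By role, all 9 primary granule genes were higher after MI, with a median log2 fold change of 0.26 and a range of 0.06 (*Mpo*) to 0.38 (*Ms4a3*). Of the 11 secondary granule genes, 8 were higher, with *Chil3* at 0.74. That value rested on MI replicate 2, in which *Chil3* reached 5869 CPM, whereas replicates 3 and 4 had 1849 and 1363 and the controls 2033, 1635 and 1786. *Lcn2* (0.37) also had its high value in replicate 2 alone, at 2522 CPM against 1209 and 1183 in replicates 3 and 4 and 1437, 1130 and 1230 in controls. *Hp* was at 0.39 and *Ltf* at 0.01. All 4 oxidase genes were higher, between *Ncf1* (0.04) and *Cyba* (0.31), and the 3 tertiary granule and surface protease genes were lower, with *Mmp9* at -0.33, *Adam8* at -0.27 and *Mmp25* at -0.12. *Padi4* (-0.31), *Fpr1* (-0.18), *Lyz2* (-0.16), *Cebpe* (-0.08), *Mmp8* (-0.08) and *Cd177* (-0.02) were the other lower members. Without MI replicate 2, 22 members were higher and 13 lower, with a median of 0.08. The 7 B lineage genes together were lower in each MI library (174 to 409.5 CPM) than in each control (422 to 567). So were the 5 T and NK genes (15.8 to 26.8 CPM against 28.2 to 35.5), and the part of both lists in the result was not tested.

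**Figure D4:**
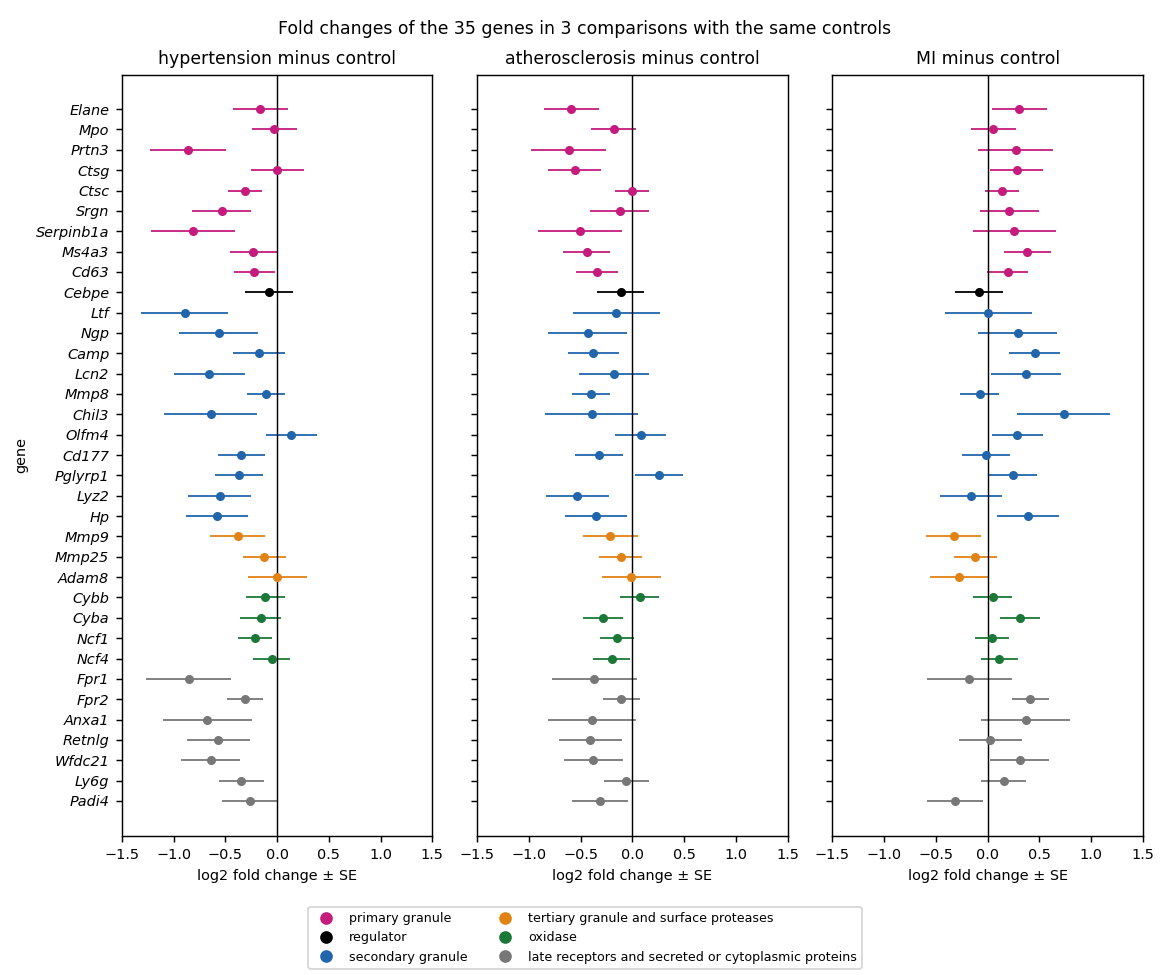
Log2 fold change ± SE (edgeR) of each of the 35 genes in the 3 comparisons, coloured by role. In hypertension and in atherosclerosis 32 genes lie left of 0, after MI 26 lie right of it, and none passed the test in any comparison.

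The median log2 fold changes of the members had opposite signs in MI and hypertension. These groups were therefore set against each other in the same fit, a contrast added after these values had been seen. The direct contrasts were not repeated with libraries left out. In MI, *Chil3* had 5869 CPM in replicate 2 against 1849 and 1363 in replicates 3 and 4. From hypertension to MI, 32 members were higher, with a median log2 difference of 0.47 against 0.01 over all genes (50.8% higher). No member was called (edgeR's quasi-likelihood test; 0.0% of 15999), and 16 had an unadjusted p under 0.05, all of them higher after MI, against 8.41% of all genes. They included *Fpr2* (0.72 ± 0.18, SE), *Wfdc21* (0.95 ± 0.29), *Hp* (0.97 ± 0.30), *Prtn3* (1.13 ± 0.37) and *Chil3* (1.38 ± 0.45), and the smallest adjusted p was 0.52 (edgeR). From atherosclerosis to MI, 30 members were higher, with a median of 0.33 against -0.02 (47.7% of all genes higher), 11 had an unadjusted p under 0.05 against 12.7% of all genes, and none was among the 43 genes called (0.269%). *Ms4a3* (0.83 ± 0.23, SE), *Elane* (0.89 ± 0.27), *Camp* (0.83 ± 0.25) and *Ctsg* (0.84 ± 0.26) led this list, with a smallest adjusted p of 0.166 (edgeR). Between hypertension and atherosclerosis, 22 members were lower and 13 higher in hypertension (45.4% of all genes higher), 2 had an unadjusted p under 0.05 (5.94% of all genes), *Pglyrp1* (-0.63 ± 0.23, SE) and *Ctsg* (0.56 ± 0.25), and none was among the 10 called (0.0625%).

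Across libraries the set did not vary as a block. Hypertension replicate 4 and atherosclerosis replicate 2 were the 2 lowest of 12 libraries in 14 of the 35 members (40.0%) and in 9.37% of all genes tested. These 2 libraries were picked out after the values had been seen, and the counts are a description. The genes with this pattern were *Serpinb1a* (-1.65, the mean log2 CPM of the 2 libraries minus that of the other 10), *Anxa1* (-1.61), *Fpr1* (-1.53), *Ltf* (-1.44), *Prtn3* (-1.39), *Wfdc21* (-1.12), *Hp* (-1.10), *Chil3* (-1.09), *Ngp* (-1.08), *Lyz2* (-1.001), *Lcn2* (-0.94), *Retnlg* (-0.86), *Srgn* (-0.80) and *Cd177* (-0.63). In the same 2 libraries *Ctsg* (-0.07), *Mpo* (0.16), *Ncf1* (-0.05), *Ncf4* (0.05), *Cybb* (0.22) and *Olfm4* (0.29) were near or above the level of the others. The split ran through both the early and the late genes. *Prtn3*, the neighbour of *Elane* in the genome, had the pattern while *Elane* (-0.37) did not, and of the late genes *Ltf* had it while *Camp* (-0.32), *Mmp9* (-0.35) and *Mmp8* (-0.19) did not.

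Atherosclerosis replicate 4 had another pattern. It had the lowest values of 9 members, *Elane*, *Mpo*, *Ctsg*, *Ms4a3*, *Cd63*, *Camp* and the oxidase genes *Cybb*, *Cyba* and *Ncf4*. It had the highest values of 5, *Cebpe*, *Mmp9*, *Mmp25*, *Adam8* and *Fpr1*, and the next to highest of *Ltf*. MI replicate 2 had the highest value of 14 members. Atherosclerosis replicate 2 also held the most counts on B lineage genes (1145 CPM, with a median of 452 over the 12), followed by hypertension replicate 4 (842), and MI replicate 2 the fewest (174). Counts on ribosomal protein genes were lowest in atherosclerosis replicate 2 and then hypertension replicate 4 (5382 and 6379 CPM) and highest in MI replicate 2 (11958). The part of these in the members' values was not tested.

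**Figure D5:**
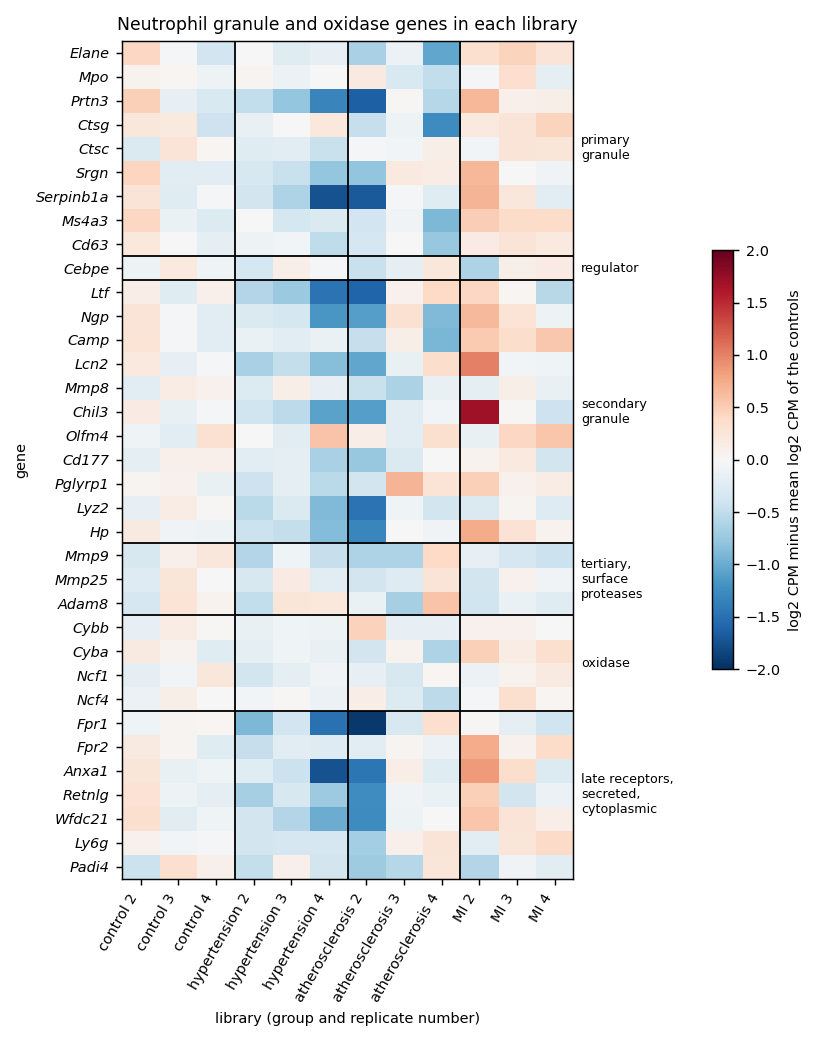
Log2 CPM of each of the 35 genes (rows, by role) in each of the 12 libraries (columns), minus the mean of the controls, from blue (lower) to red (higher). Hypertension replicate 4 and atherosclerosis replicate 2 share a set of low genes that runs across roles, MI replicate 2 is high in many of the same genes, and *Ncf1*, *Cybb* and *Ncf4* vary little.

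Of the oxidase genes, *Ncf1*, *Cybb* and *Ncf4* varied little across libraries, and *Cyba* varied more. *Cybb*, which carries the electrons across the membrane, ranged from 1065 to 1641 CPM over the 12 libraries, a ratio of 1.54, with group means of 1197 ± 128, 1106 ± 24.2, 1258 ± 332 and 1239 ± 45.0 in controls, hypertension, atherosclerosis and MI (SD, n = 3 each). The ratio of highest to lowest library was 1.51 for *Ncf1*, the cytosolic organizer, 1.79 for *Ncf4* and 2.12 for *Cyba*, the partner of *Cybb* in the membrane. A narrow range was not particular to the oxidase, as *Mmp25* (1.545), *Ctsc* (1.62), *Mmp8* (1.72) and *Olfm4* (1.74) had ratios below that of *Ncf4*. Over the whole set the ratio ran from 1.51 (*Ncf1*) to 6.93 (*Chil3*), with *Anxa1* at 5.99, *Serpinb1a* at 5.36, *Prtn3* at 4.89 and *Fpr1* at 4.81. The oxidase is also expressed by monocytes and macrophages, and monocyte genes held 1293 to 2057 CPM in these libraries. Macrophage genes held 476 to 965 CPM and eosinophil genes 6295 to 15132. The part of these lists in the oxidase values was not tested.

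Pairs of genes were compared over the 12 libraries as log2 CPM, with 3 pairs in all and permutation p values adjusted over them. *Elane* and *Mpo* had Pearson's r = 0.53 (adjusted p = 0.226, permutation) and Spearman's rho = 0.44 (adjusted p = 0.443). *Ltf* and *Camp*, both secondary granule genes, had r = 0.21 (adjusted p = 0.539, permutation) and rho = 0.24 (adjusted p = 0.443). *Elane* and *Ltf* had r = 0.20 (adjusted p = 0.539, permutation) and rho = 0.25 (adjusted p = 0.443). None passed the threshold. After leaving out the 2 libraries farthest from the median of the first gene, r was 0.53, -0.08 and 0.39 for the 3 pairs, and with group means subtracted it was 0.34, -0.06 and 0.03.

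Other genes of the neutrophil programme were taken from a list of 52, of which 51 had enough counts (*Bpi* did not). In hypertension 44 of them were lower and 7 higher, with a median log2 fold change of -0.23; in atherosclerosis 43 were lower and 8 higher (-0.24); and after MI 27 were higher and 24 lower (0.03). Of all genes tested, 51.9% were lower in hypertension, 48.1% lower in atherosclerosis and 50.0% higher after MI. None of the list was called in any comparison (edgeR). An unadjusted p under 0.05 was found in 3, 7 and 6 of them, against 3.71%, 5.97% and 2.8% of all genes tested. In 13 genes of the list all 3 hypertension libraries lay below all 3 controls, and in 13 genes all 3 atherosclerosis libraries did. After MI all 3 libraries lay above the controls in 6 genes. Over all genes tested these shares were 7.81%, 4.45% and 4.27%, and no gene of the list separated the other way. The S100 proteins that form calprotectin followed the low libraries. *S100a9* had 7844, 4815 and 4566 CPM in controls, 3593, 3401 and 2083 in hypertension, 1536, 6638 and 4745 in atherosclerosis and 10162, 5547 and 5232 after MI. *S100a8* ranged from 1056 CPM in atherosclerosis replicate 2 to 6883 in MI replicate 2, and both genes were lower in each hypertension library than in each control, with log2 fold changes of -0.92 ± 0.45 and -0.89 ± 0.47 (SE). The smallest p in hypertension were those of *Prss57*, a serine protease of primary granules (-0.51 ± 0.19, SE), and *Gca*, grancalcin (-0.66 ± 0.26), and in both genes the hypertension libraries lay below the controls.

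In atherosclerosis the smallest p on this list were those of *Gfi1*, a transcriptional repressor needed for neutrophil development, and *Stfa1*, a stefin. *Gfi1* had 56.5, 67.5 and 78.3 CPM in controls, 61.0, 68.3 and 62.1 in hypertension, 52.1, 38.8 and 49.6 in atherosclerosis and 57.1, 71.7 and 62.5 after MI, and all 3 atherosclerosis libraries were below all 3 controls, with a log2 fold change of -0.52 ± 0.16 (SE) and an adjusted p of 0.556 (edgeR). After MI they were those of 2 stefins. *Stfa3* rested on few counts, with 0.760 ± 0.216 CPM in controls and 1.80 ± 0.303 after MI (SD, n = 3 each), and *Stfa1* had 5.44, 5.14 and 5.62 CPM in controls, 5.81, 5.52 and 4.01 in hypertension, 1.96, 4.11 and 3.41 in atherosclerosis and 10.1, 7.46 and 9.90 after MI. *Stfa1* lay above the controls in each MI library (0.76 ± 0.27, SE) and below them in each atherosclerosis library (-0.78 ± 0.27). The 6 genes of the list at an unadjusted p under 0.05 after MI were *Stfa3*, *Stfa1*, *BC100530*, *Stfa2l1*, *Stfa2* and *Alox5ap*. Apart from *Alox5ap*, their control means were low, from 0.574 CPM (*Stfa2*) to 11.8 (*Stfa2l1*). The stefins are near-identical copies of one another, so counts of single members are uncertain and they are not separate findings. By group, the 8 transcription factors had medians of -0.08, -0.17 and -0.05 in hypertension, atherosclerosis and MI, the 6 other oxidase parts -0.23, -0.13 and -0.02, the 13 receptors and integrins -0.27, -0.21 and -0.14, and the 24 tested granule and cytoplasmic proteins -0.24, -0.36 and 0.11. Of the receptors and integrins, 8 of 13 were lower after MI and 11 of 13 in each of the other comparisons.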

How the data were processed

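RNA of cells sorted as bone marrow endothelial cells was sequenced from 12 mice. The authors aligned single-end reads from strand-specific polyA libraries to GRCm38.p6 with STAR 2.7.3a and deposited raw counts per Ensembl gene from its GeneCounts option, without normalization. The strand column taken is not given in the sources used here. All 12 columns were used, and samples were grouped by the labels. Symbols and positions came from GENCODE M21, which held 55240 of the 55421 identifiers, and upstream sequences from RefSeq (GRCm38.p6).

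Counts were analysed in R 4.3.3 with edgeR 4.0.16: filterByExpr, TMM scaling, 1 coefficient per group fitted to all 12 libraries, and two-sided quasi-likelihood tests of each disease group against controls, with Benjamini-Hochberg adjustment over 15999 genes and a threshold of 0.05. Depth was 17007088 to 25136936 counts per library, and a floor of 3 counts covers counting error only. CPM are TMM-scaled, and sums over marker lists are CPM of the unscaled library total. Pairs of genes were compared by permutation tests with 100000 resamples (scipy 1.17.1). The code was tested on simulated data.

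The members and lists were chosen with earlier results of these data known. Values are given in every library for the early and late genes and for the 3 members with the smallest p in each comparison. On the other list, the 2 with the smallest p are given. *Chil3*, *S100a8* and *S100a9* were added after their values were seen. Same-numbered libraries of different groups had correlations of deviations between -0.28 and 0.30, above 0.1 in 5 of 18 pairs, so the numbers were not taken as pairs. The alternatives changed the test (likelihood-ratio, DESeq2 1.42.0), the scaling (RLE), the filter (1 count in total, or 10 in every library), the libraries fitted (2 groups only, 1 library left out), the genes counted (without those of immunoglobulins and hemoglobins) or the model (replicate block). In the main fit, p values of fold changes rest on the spread between mice within groups, pooled over all 4 groups and 12 libraries. Those of the pairs of genes come from permuting libraries.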

Additional observations from a re-analysis of the deposited data

How the results depend on the processing

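Over the alternatives, no member was called in atherosclerosis or MI. In hypertension 2 members were called without a low-count filter, *Prtn3* (log2 fold change -0.84, adjusted p = 0.029, edgeR) and *Fpr1* (-0.84, adjusted p = 0.012), and 0 in every other setting. The adjusted p of *Prtn3* ranged from 0.029 to 1 over the settings. That setting tested 36003 genes and called 170 in hypertension, 432 in atherosclerosis and 130 in MI, against 0, 23 and 0; the cause was not tested. The likelihood-ratio test and DESeq2 each called 81 genes in atherosclerosis and 1 in MI, only the 2 groups compared called 4 and 1, and the replicate block called 7 in atherosclerosis.

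Members at an unadjusted p under 0.05 in hypertension numbered 5 with the likelihood-ratio test (3.51% of all genes in the same setting), 5 with DESeq2 (3.91%), 13 without a filter (4.39%), 13 with only the 2 groups compared (10.04%), 1 with the replicate block (3.05%) and 0 to 3 when each library was left out. In atherosclerosis they numbered 6 without a filter (5.91% of all genes), 0 with at least 10 counts in every library (5.85%), 0 with only the 2 groups compared (4.38%) and 0 to 9 when each library was left out (9 without atherosclerosis replicate 3, with 10.6% of all genes). After MI they numbered 0 with the replicate block and 0 to 2 when each library was left out. The replicate block changed no other call among the members. The median log2 fold change in atherosclerosis was -0.33 to -0.12 when each library was left out, with -0.12 without atherosclerosis replicate 2.

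For the early to late log2 ratio, hypertension minus controls was 0.15 as a mean of log2 values and 0.042 without *Ltf*. Leaving out *Ltf* was an alternative chosen after seeing the data. For the same ratio, atherosclerosis minus controls was -0.52 without atherosclerosis replicate 2 and 0.22 without atherosclerosis replicate 4. *Ltf* and *Camp* had r = -0.082 without 2 libraries and -0.062 with group means subtracted. Signs of small fold changes turned. *Ctsg* in hypertension was -0.0011 with DESeq2, -0.0011 with RLE size factors, -0.0041 with only the 2 groups compared and -0.17 to 0.11 when each library was left out. *Ltf* after MI was -0.014 without a filter, -0.0018 with the replicate block and -0.24 to 0.22 when each library was left out. Leaving out each library gave -0.33 to 0.069 for *Elane* and -0.069 to 0.019 for *Mpo* in hypertension, -0.52 to 0.25 for *Ltf* in atherosclerosis, and -0.11 to 0.16 for *Mpo* after MI.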
